A study of Mus musculus with 8 samples.

Results

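The IL-1 family receptors and the adaptors that carry their signal were followed in TNFR2+ and TNFR2- Tregs. They are a list of 10 genes, given by symbol: the receptors Il1rl1, Il18r1, Il18rap, Il1r1, Il1r2, Il1rap and Sigirr, and the signalling proteins Myd88, Irak1 and Irak4. Symbols were matched to the 20172 Ensembl identifiers of the table, and 10 of the 10 had a row. The libraries came from CD4+ T cells of the spleens of female Foxp3 CreYFP mice, labelled Foxp3 YFP-cre, in which the Foxp3 gene drives a yellow fluorescent protein joined to Cre recombinase. YFP marked the Tregs of both populations, and the sort then divided them by surface TNFR2, the receptor encoded by Tnfrsf1b, into TNFR2+ Tregs (4 libraries) and TNFR2- Tregs (4 libraries). No treatment is named for either population, and all mice were young adults by the age range in the methods. An n of 4 is stated for this comparison, but not whether each library came from a separate mouse, so the p-values measure the spread between libraries, which may be technical.

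IL-1, IL-18 and IL-33 are cytokines of the IL-1 family. IL-1 and IL-33 are often called alarmins because damaged or inflamed tissue releases them. Each binds a specific receptor chain (Il1r1 for IL-1, Il18r1 for IL-18, and Il1rl1, also called ST2, for IL-33), which then recruits an accessory chain (Il1rap, or Il18rap in the case of IL-18). The paired intracellular TIR domains gather MyD88, IRAK4 and IRAK1 and lead to NF-kB and MAP kinase signalling. Il1r2 is a decoy that binds IL-1 but has no signalling domain, and Sigirr dampens signalling by the family. ST2+ Tregs are well known from barrier and adipose tissues, where IL-33 expands them.

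The table holds estimated read counts per gene divided by a size factor for each library, called normalized counts below. Whether a length correction was also applied is not given in the sources used here. The estimated depth was 9100000 to 12110000 reads per library, and 1 read was worth 0.85 to 1.152 normalized counts. Foxp3, the transcription factor that defines Tregs, lay between 2812 and 4033 normalized counts in the 8 libraries, and Tnfrsf1b itself was 1.87-fold higher in TNFR2+ Tregs (log2 fold change 0.90 ± 0.16 (SE), limma adjusted p = 0.00449). Genes with a mean of at least 10 were tested with limma on log2(normalized count + 1), 13990 in all, and a gene was called at an adjusted p under 0.05. Fold changes refer to that log2 scale, on which the changes of low genes are understated. Of all tested genes 7.91% were called, 4.52% as higher and 3.39% as lower in TNFR2+ Tregs.

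All 10 listed genes passed the filter, and 1 of them, Il1r2, was called. The decoy receptor was higher in TNFR2+ Tregs, and none of the other 9 receptors and adaptors was called in either direction. An unadjusted p under 0.05 was reached by 3 of the 10 (Il1r2, Sigirr and Il1rl1), beside 23.0% of all tested genes. Estimates were above 0 for 6 and below 0 for 4 of the 10 (among these Il1r1, which was near 0 in most libraries), with a median log2 fold change of 0.13 beside -0.01 over all tested genes. The libraries of the populations did not overlap for 1 of the 10, again Il1r2, beside 15.4% of all tested genes (8.08% with TNFR2+ Tregs higher and 7.29% with TNFR2- Tregs higher).

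**Figure D1:**
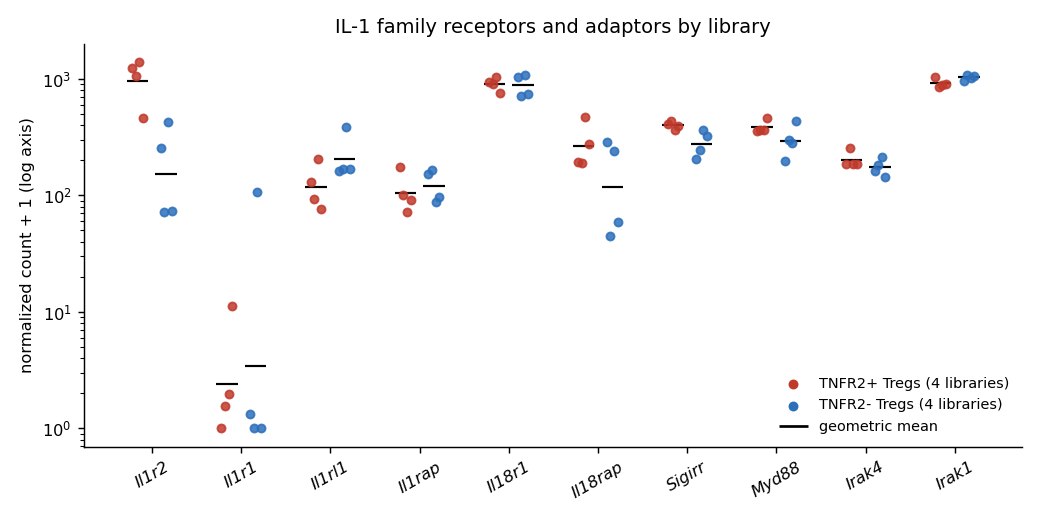
Normalized count plus 1 (log axis) of the 10 genes in each library, TNFR2+ Tregs in red and TNFR2- Tregs in blue, with the geometric mean of each population as a black line. Il1r2 is the gene whose red and blue points do not overlap, from 461 to 1384 against 70.5 to 421 normalized counts, and Il1r1 lies near 0 apart from a blue point at 106.

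Il1r2, the decoy receptor for IL-1, had 1228, 1054, 1384 and 461 normalized counts in the TNFR2+ libraries, replicates 1 to 4 in that order. The TNFR2- libraries had 252, 70.5, 421 and 71.8. All TNFR2+ libraries lay above all TNFR2- libraries, but the lowest of the former (replicate 4) was close to the highest of the latter (replicate 3). The means were 1032 ± 404 and 204 ± 168 (SD, n = 4 each). The difference was 6.22-fold with a 95% interval of 2.83 to 13.6 (log2 fold change 2.64 ± 0.53 (SE), limma adjusted p = 0.00796). The exact two-sided permutation test over the 70 relabellings of the libraries gave p = 0.0286, the smallest it can give. The call held without each of the 8 libraries in turn, with log2 fold changes of 2.27 to 3.12 and limma adjusted p of 0.00126 to 0.0313, and was lost when the variances were moderated without an intensity trend (limma adjusted p = 0.0745). The TNFR2- replicates with the lowest Il1r2, 2 and 4, also stood apart in the share of reads taken by Gm26917 and Gm42418 (10.1% and 11.4%, beside 6.01% to 8.20% in the other 6 libraries) and in the share of low values on whole steps (79.1% and 69.7%, beside 84.5% to 96.4%). Without both of them, an alternative chosen after the data were seen, the log2 fold change was 1.55 and Il1r2 was no longer called (limma adjusted p = 0.0578), with 4 libraries left against 2. The part of library quality in the difference was not tested. In sorted bulk samples, more cells with Il1r2 and more Il1r2 RNA per cell cannot be told apart.

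Il1r2 (ENSMUSG00000026073) lies on the plus strand of chromosome 1, chr1:40074079-40125231 (GRCm38). A second gene model with its own row in the table, Gm37347, a single unspliced model on the same strand (chr1:40088511-40091581), sits inside Il1r2 and shares none of its 3071 bases with the annotated exons of Il1r2. It had 1019.9, 970.1, 1207 and 421 normalized counts in the TNFR2+ replicates and 174, 71.2, 319.7 and 90.4 in the TNFR2- replicates, with a log2 fold change of 2.60 ± 0.43 (SE, limma adjusted p = 0.00273). The intronic stretch followed Il1r2 library by library, high in TNFR2+ replicates 1 to 3 and low in TNFR2- replicates 2 and 4. An antisense model, Gm16894 (chr1:40076228-40085851, minus strand), also lies within Il1r2 without exon overlap and stayed between 1.05 and 33.9 normalized counts (log2 fold change 1.15, limma adjusted p = 0.519).

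The promoters of Il1r2 and Il1rl1 are shown because these receptors, in a single gene cluster, had estimates of opposite sign. The windows are the RefSeq ones of GRCm38.p6, with 250 bases before each transcript start, and were searched on both strands for AP-1 (TGANTCA), a site known for GATA factors (AGATAA), NF-kB (GGGA and CC with any 4 bases between) and STAT (TTCNNNGAA) letters, written in capitals where found. For Il1r2 the first 148 of the 250 bases searched are shown (chr1:40085843-40085990), up to the end of the STAT match. The match starts at -111 from the RefSeq start. That start, chr1:40086093, lies inside the gene model of Il1r2, which begins at chr1:40074079. The first bases of the stretch shown overlap the antisense Gm16894. Il1rl1 has a distal promoter (chr1:40429320-40429569) and a proximal one (chr1:40439379-40439626), each with 1 GATA match, at -217 and, on the reverse strand, at -103.
Il1r2: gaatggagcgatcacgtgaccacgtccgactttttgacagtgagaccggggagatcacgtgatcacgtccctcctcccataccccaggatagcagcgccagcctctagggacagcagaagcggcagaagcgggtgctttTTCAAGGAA
Il1rl1 distal: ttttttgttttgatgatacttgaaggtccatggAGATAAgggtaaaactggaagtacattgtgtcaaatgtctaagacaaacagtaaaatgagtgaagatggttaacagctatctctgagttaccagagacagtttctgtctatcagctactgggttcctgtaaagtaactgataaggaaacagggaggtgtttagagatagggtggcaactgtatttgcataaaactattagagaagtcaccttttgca
Il1rl1 proximal: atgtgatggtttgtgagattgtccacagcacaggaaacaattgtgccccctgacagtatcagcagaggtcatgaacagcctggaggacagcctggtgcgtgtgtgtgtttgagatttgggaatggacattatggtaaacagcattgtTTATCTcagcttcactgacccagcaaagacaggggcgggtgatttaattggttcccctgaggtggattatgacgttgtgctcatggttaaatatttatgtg
None of the other letters occurred in these windows. Of all 32851 mouse promoter windows of that length, 7.02% held the STAT letters, 9.99% the GATA letters, 6.75% the AP-1 letters and 17.6% the NF-kB letters. GC content was 57.4% in the Il1r2 stretch, 37.6% in the distal and 46.4% in the proximal Il1rl1 stretch. A match of letters is a description of the sequence and says nothing on binding in these cells.

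Il1r1, the signalling receptor for IL-1, was close to absent. It had 0, 0.57, 0.98 and 10.2 normalized counts in the TNFR2+ replicates and 0.34, 0, 106 and 0 in the TNFR2- replicates. A value of 0 allows up to 3 reads, or 2.55 to 3.46 normalized counts depending on the library, so in 6 of the 8 libraries Il1r1 was at or under what the depth can show. It passed the filter (mean 14.7) only through TNFR2- replicate 3. No fold is given. The limma adjusted p was 0.904 and the interval of the log2 difference ran from -4.37 to 3.35. TNFR2- replicate 3 also had the highest summed levels of the myeloid markers (497 normalized counts, beside 159 to 255 in the other 7 libraries) and of the mast cell and basophil markers (133, beside 13.9 to 63.9), with most of each sum from a single gene (Cxcr2 at 407 and Hdc at 106). Itgam (21.2) and Csf1r (9.19) were also highest there, whereas Csf3r was at 51.6 beside 100.3 in TNFR2- replicate 2, Ms4a2 was at 27.7 beside 37.2 in TNFR2- replicate 1, and Fcgr3 and Cma1 were at 0. The part of other cells in its Il1r1 value was not tested. The same-strand model Gm38070, inside Il1r1 and outside its exons, had 255 to 342 normalized counts in TNFR2+ and 343 to 651 in TNFR2- libraries, so reads came from the locus where the receptor's exons gave almost none (log2 fold change -0.58, limma adjusted p = 0.127).

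Il1rl1, which encodes the IL-33 receptor ST2, had 129, 92.7, 204 and 75.8 normalized counts in the TNFR2+ and 162, 168, 387 and 168 in the TNFR2- libraries (replicates 1 to 4). In TNFR2- Tregs 3 libraries lay within 162 to 168, and replicate 3 stood above them. TNFR2+ replicate 3 lay among the TNFR2- values and the other 3 below all of them. The means were 125 ± 56.9 and 221 ± 110.4 (SD, n = 4 each), a 0.570-fold level in TNFR2+ Tregs with a 95% interval of 0.330 to 0.986 (log2 fold change -0.81 ± 0.37 (SE)). This did not pass the threshold (limma adjusted p = 0.205, exact permutation p = 0.114). Without TNFR2- replicate 3 the log2 fold change was -0.51 (limma adjusted p = 0.414), and without TNFR2+ replicate 3 it was -1.08 (limma adjusted p = 0.119). Mast cells and basophils are themselves known to carry ST2. Of 9 markers of these cells, 3 had a row and 2 passed the filter, with no call, and Cma1 was at 0 in 7 of 8 libraries. In TNFR2- replicate 3, where Il1rl1 was highest, Hdc, the histamine-forming enzyme, was at 106 normalized counts beside 4.07 to 15.0 in the other 7 libraries, whereas Ms4a2, a chain of the IgE receptor, was at 27.7 and Cma1 at 0. The part of such cells in the Il1rl1 level was not tested.

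Il1rap, the accessory chain that Il1rl1 and Il1r1 share, had 174, 99.2, 71.1 and 91.0 normalized counts in TNFR2+ Tregs and 149.9, 163, 86.7 and 96.6 in TNFR2- Tregs. The populations overlapped throughout, with a log2 fold change of -0.22 (95% interval -0.96 to 0.53, limma adjusted p = 0.762). The amount of Il1rl1 relative to Il1rap within a library ran from 0.739 to 2.87 in TNFR2+ and from 1.03 to 4.46 in TNFR2- Tregs, both maxima being in a replicate 3.

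Il18r1, the ligand-binding chain of the IL-18 receptor, was the receptor whose estimate was closest to 0. It had 943, 892, 1038 and 758 normalized counts in TNFR2+ Tregs and 1025, 712, 1083 and 744 in TNFR2- Tregs. The log2 fold change was 0.04 ± 0.17 (SE), with a 95% interval of -0.33 to 0.42, that is 0.794- to 1.34-fold (limma adjusted p = 0.920, exact permutation p = 0.83). Its sign turned negative without TNFR2+ replicate 3, TNFR2- replicate 2 or TNFR2- replicate 4. Il18rap, the accessory chain needed for IL-18 signalling, was far more variable, with 193, 189.7, 469.7 and 273 normalized counts in TNFR2+ and 288, 43.9, 240.2 and 58.4 in TNFR2- Tregs. TNFR2- replicates 2 and 4 lay below all other libraries, and replicates 1 and 3 lay among the TNFR2+ values. The estimate was 2.25-fold (95% interval 0.988 to 5.12, log2 fold change 1.17 ± 0.55 (SE)) and did not pass the threshold (limma adjusted p = 0.225, exact permutation p = 0.257). As a ratio within each library, a quantity chosen after the values were seen, Il18rap over Il18r1 was 0.205, 0.213, 0.452 and 0.359 in TNFR2+ Tregs and 0.281, 0.0616, 0.222 and 0.0785 in TNFR2- Tregs. The same TNFR2- replicates, 2 and 4, were the ones with the lowest Il1r2 and the highest share of Gm26917 and Gm42418, and without both of them the log2 fold change of Il18rap was -0.0072.

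Sigirr, the inhibitory member, had 408, 437, 359 and 393 normalized counts in TNFR2+ Tregs and 206, 243, 363 and 323 in TNFR2- Tregs. In TNFR2+ Tregs 3 of 4 libraries lay above all TNFR2- libraries, and the coefficient of variation was 8.07% in TNFR2+ and 25.5% in TNFR2- Tregs. The means were 399 ± 32.2 and 284 ± 72.3 (SD, n = 4 each), a 1.44-fold difference with a 95% interval of 1.05 to 1.97 (log2 fold change 0.52 ± 0.21 (SE)). It missed the threshold over all genes (limma adjusted p = 0.156, exact permutation p = 0.0571). Sigirr (chr7:141091175-141100572, minus strand) lies outside the receptor cluster.

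**Figure D2:**
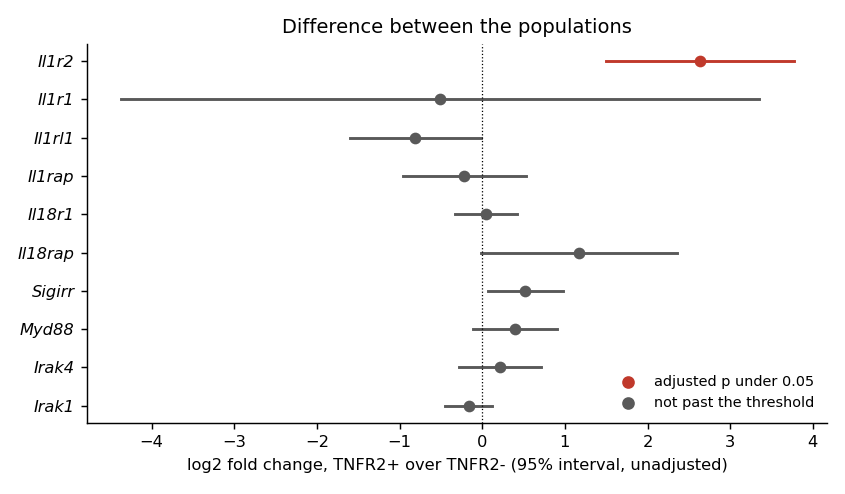
Log2 fold change of TNFR2+ over TNFR2- Tregs for the 10 genes (points) with unadjusted 95% intervals (lines), red where the adjusted p is under 0.05. Il1r2 at 2.64 is the only red point, the intervals of Sigirr and Il1rl1 just exclude 0, and that of Il1r1 runs from -4.37 to 3.35.

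Among the adaptors, Myd88 had 355.5, 359, 364 and 462 normalized counts in TNFR2+ and 196, 299, 279 and 434 in TNFR2- Tregs (log2 fold change 0.40 ± 0.24 (SE), limma adjusted p = 0.347). Replicate 4 was the highest library of each population, and the ranges overlapped through TNFR2- replicate 4. Myd88 shares 290 exonic bases, 11.3% of its own, with Acaa1a on the opposite strand, whose log2 fold change was -0.40 (limma adjusted p = 0.517). The library kit keeps the strand, but whether the strand was used in counting is not given in the sources used here. Irak4, the kinase that MyD88 binds first, had 186, 253, 186 and 186 normalized counts in TNFR2+ and 161, 181, 214 and 143 in TNFR2- Tregs (log2 fold change 0.21, 95% interval -0.28 to 0.71, limma adjusted p = 0.633). It too overlaps a gene on the other strand, Twf1, in 7.87% of its exonic bases. Irak1, the next kinase, had 1043, 851, 882 and 899.7 normalized counts in TNFR2+ and 957, 1071, 1015 and 1065 in TNFR2- Tregs (log2 fold change -0.16, 95% interval -0.44 to 0.12, limma adjusted p = 0.505). Its libraries overlapped only because TNFR2+ replicate 1 lay within the TNFR2- range.

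Levels of different genes were compared as normalized counts per kilobase of the longest coding transcript. In TNFR2+ Tregs Il1r2 came first with 727 ± 284 (SD, n = 4) per kilobase. It was separated from Irak1 (239.7), Il18r1 (218), Sigirr (201) and Myd88 (197), whose neighbours in the order overlapped. Irak4 (58.9) and Il18rap (57.5) followed, then Il1rap (24.1) and Il1rl1 (23.6), and Il1r1 last at 0.503. TNFR2- Tregs had Irak1 (268), Il18r1 (214), Myd88 (154), Il1r2 (144) and Sigirr (143) in an upper group without gaps between neighbours. Irak4 (50.8), Il1rl1 (41.7), Il18rap (32.2) and Il1rap (27.4) formed a lower one, and Il1r1 (4.56) was again last. In both populations the IL-18 receptor chain Il18r1 was thus at a higher level per kilobase than ST2, and in every library the decoy Il1r2 was above the signalling receptor Il1r1.

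The receptors Il1r2, Il1r1, Il1rl2, Il1rl1, Il18r1 and Il18rap lie side by side on the plus strand of chromosome 1, chr1:40074079-40551705, a span of 478 kb. The annotation lists 10 genes there, and 9 had values and were tested. Il18r1 starts 137 bases beyond the end of Il1rl1, and 14508 bases separate Il18r1 from Il18rap. The log2 estimates along the cluster were 2.64 for Il1r2, -1.90 for Il1rl2, -0.81 for Il1rl1, 0.04 for Il18r1 and 1.17 for Il18rap, leaving aside Il1r1, whose values lay mostly at the floor. Of the 6 receptors, Il1r2 was the one called. Il1rl2, the IL-36 receptor, was low in all libraries, with 9.20, 16.4, 1.34 and 6.02 normalized counts in TNFR2+ and 28.1, 14.7, 37.5 and 31.0 in TNFR2- Tregs (limma adjusted p = 0.155, exact permutation p = 0.0571).

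**Figure D3:**
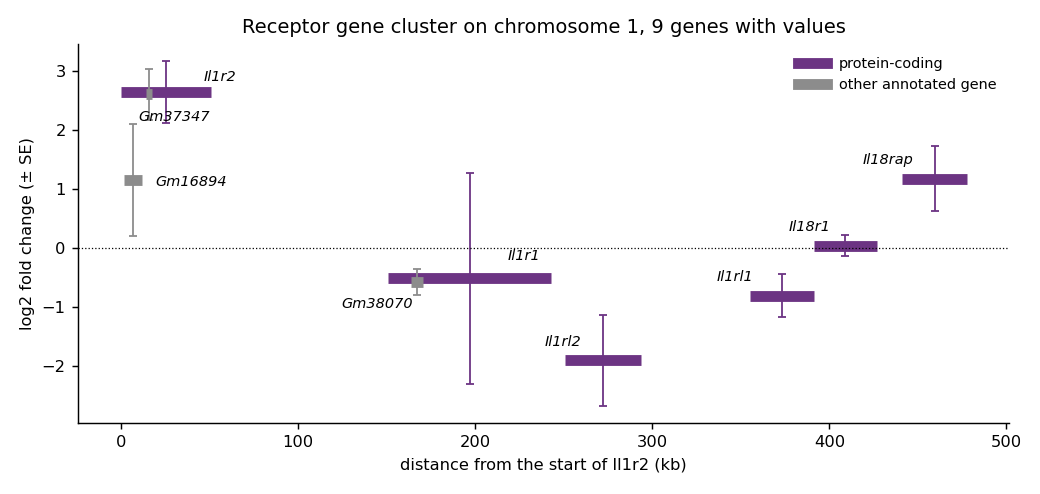
Log2 fold change (± SE) of the 9 genes with values in the receptor cluster against distance from the start of Il1r2 in kb. Each bar spans the gene, purple for protein-coding and gray for other gene models; Il1r2 and the model Gm37347 inside it lie at 2.64 and 2.60, Il1rl2 and Il1rl1 lie below 0, and the bar of Il1r1 rests on values mostly at the floor.

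The genes whose profile over the 8 libraries was closest to Il1r2, out of 9204 protein-coding genes with a mean of at least 50, were Lag3, Tigit and Chst2. The measure was the root mean square difference of log2 values after centring each gene on its mean. It was 0.311 for Lag3, 0.315 for Tigit and 0.432 for Chst2, while the values of Il1r2 about their own mean had a root mean square of 1.599. Lag3 and Tigit encode inhibitory receptors of T cells. Tigit had 1082 to 1859 normalized counts in TNFR2+ Tregs, and 381, 149, 676 and 98.6 in TNFR2- replicates 1 to 4 (log2 fold change 2.55, limma adjusted p = 0.00482). Lag3 had 248 to 670.2 in TNFR2+ Tregs, and 159, 42.6, 353 and 27.6 in TNFR2- replicates 1 to 4 (log2 fold change 2.46, limma adjusted p = 0.0327). The call of Lag3 was lost without any single one of TNFR2+ replicates 1, 2 and 3 or TNFR2- replicates 2 and 4, with limma adjusted p of up to 0.101. Like Il1r2, these genes were higher in TNFR2- replicates 1 and 3 than in 2 and 4, the libraries with the high share of Gm26917 and Gm42418, and without both of the latter Lag3 was not called (limma adjusted p = 0.205) and Tigit was (limma adjusted p = 0.0163).

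For Il1rl1 the closest profiles were those of Prg4 (0.230), Spic (0.288) and D1Ertd622e (0.303), where Il1rl1 itself had a root mean square of 0.668 about its mean. Spic, a transcription factor known from red pulp macrophages of the spleen, had 34.6 to 68.2 normalized counts in TNFR2+ and 71.6 to 153.9 in TNFR2- Tregs. Prg4, which encodes lubricin, had 113 to 366 and 311 to 671. Both were highest in TNFR2- replicate 3, as Il1rl1 was. None of these 3 genes was called (limma adjusted p of 0.0864, 0.186 and 0.168), and Prg4 was called without TNFR2+ replicate 3 (limma adjusted p = 0.0344).

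**Figure D4:**
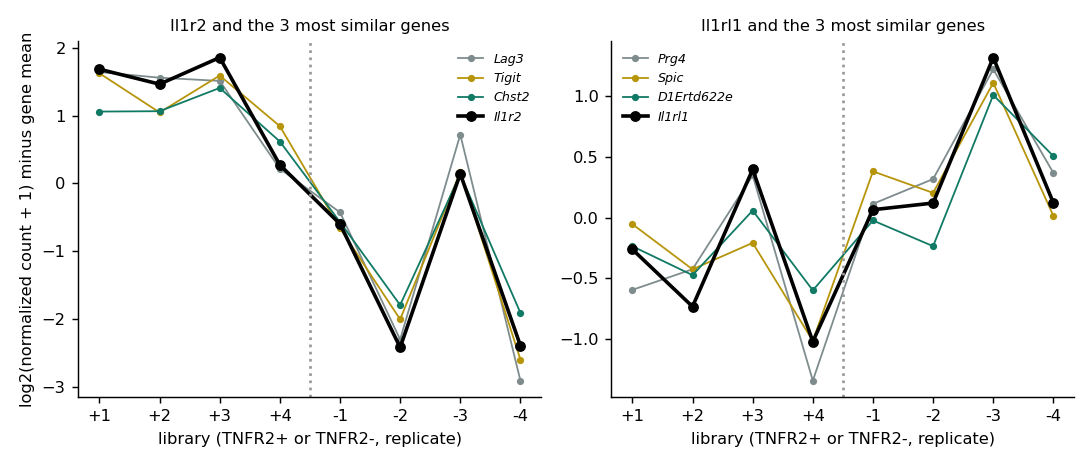
Log2(normalized count + 1) minus each gene's mean in the 8 libraries (replicates 1 to 4 of TNFR2+, then of TNFR2-) for Il1r2 (left, black) and Il1rl1 (right, black) with the 3 genes of most similar profile (colours). Il1r2 and its neighbours are low in TNFR2- replicates 2 and 4, and Il1rl1 and its neighbours peak in TNFR2- replicate 3.

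The ligands were hardly measured in these sorted cells. Of 11 IL-1 family ligands and soluble antagonists, 5 had a row and 2 passed the filter, and neither was called. Il1rn, the IL-1 receptor antagonist, had 22.1 to 31.99 normalized counts in TNFR2+ and 0 to 37.4 in TNFR2- Tregs (limma adjusted p = 0.235). Il18bp, which captures IL-18, had 7.01 to 26.0 in TNFR2+ and 26.4 to 73.2 in TNFR2- Tregs, without overlap (log2 fold change -1.58, limma adjusted p = 0.108). Il18 lay between 0 and 6.89.

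Downstream of MyD88, 27 of 28 listed genes were tested, and 2 rose and 1 fell in TNFR2+ Tregs, with a median log2 fold change of -0.03. Over all tested genes the shares called were 4.52% higher and 3.39% lower, so these few calls are not read as a result about the list. Scaling to equal totals gave 4 higher and 0 lower, and without TNFR2+ replicate 1 there were 0 higher and 1 lower. Without the intensity trend none was called. Peli2, an E3 ubiquitin ligase that acts on IRAK1, had 63.4, 100.2, 44.4 and 200.7 against 17.0, 5.27, 36.8 and 21.0 normalized counts (log2 fold change 2.33, limma adjusted p = 0.0362). Its call was lost without any single one of TNFR2+ replicates 1, 2 and 4 or TNFR2- replicates 1, 2 and 4 (limma adjusted p up to 0.112). Map2k3, a kinase upstream of p38, was at 746 ± 134 against 396 ± 88.8 (log2 fold change 0.92, limma adjusted p = 0.0145), and just missed the threshold without TNFR2+ replicate 1 or 3 (limma adjusted p = 0.0516 and 0.0522). Ikbkb, the kinase that releases NF-kB, was at 1640 ± 112 against 2556 ± 629.7 (log2 fold change -0.61, limma adjusted p = 0.0417), and its call held without TNFR2- replicate 3 only, being lost without any of the other 7 libraries (limma adjusted p up to 0.127) and under scaling to equal totals (limma adjusted p = 0.0711).

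Of 16 Toll-like receptors and other TIR-domain genes, 8 were tested and 1 was called, beside 7.91% of all tested genes. This was Pik3ap1 (log2 fold change 2.03, limma adjusted p = 0.0191), an adaptor that links TIR signalling to PI3K. Without any single one of TNFR2+ replicates 1, 2 and 3 it was not called (limma adjusted p up to 0.0644). Estimates of this list were above 0 for 4 genes and below 0 for 4. Tlr7 had 17.9 to 42.9 normalized counts in TNFR2+ and 54.6 to 371 in TNFR2- Tregs, without overlap (log2 fold change -1.83, limma adjusted p = 0.0569). With estimated array weights, and without TNFR2- replicate 4, 1 gene of the list was called lower. Of 8 inflammasome genes tested out of 9 listed, 1 rose, beside 4.52% of all tested genes. Casp4, which encodes caspase-11, was at 881 ± 122 against 318 ± 119 normalized counts (log2 fold change 1.53, limma adjusted p = 0.0023) and was called under all 11 alternatives and without each library. The median of the 8 was 0.50.

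Genes linked to ST2+ tissue Tregs were mostly higher in TNFR2+ Tregs, whereas Il1rl1 itself had a negative estimate. Of the 15 listed, 14 were tested, 11 rose and none fell, beside 4.52% called higher and 3.39% called lower of all tested genes. Estimates were above 0 for 14 of 14, with a median of 1.19. The list was chosen with earlier results of these data known, so its counts are a description and not independent support for a link to ST2. The highest log2 fold changes among those called were those of Ccr8 (3.38), Il10 (2.79), Tigit (2.55), Nfil3 (1.59), Prdm1 (1.53) and, at 2.46-fold, Batf. Ccr8 is a chemokine receptor of tissue and tumor Tregs and Il10 an inhibitory cytokine. Nfil3, Prdm1 and Batf are transcription factors of effector Tregs. Leaving out a library gave 7 to 13 calls, with 7 without TNFR2+ replicate 2, TNFR2+ replicate 3 or TNFR2- replicate 2, 6 were left without TNFR2- replicates 2 and 4 together, and 4 without the intensity trend. Prdm1 lost its call without TNFR2+ replicates 1, 2 or 3 or TNFR2- replicates 2 or 4 (limma adjusted p up to 0.0725).

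Of the Th17-linked list, 4 of 7 genes were tested, and Ahr (log2 fold change 1.10, limma adjusted p = 0.00422) and Ccr6 (1.14, limma adjusted p = 0.0285) rose. Ccr6 lost its call without any one of the TNFR2+ libraries or TNFR2- replicates 1 or 2 (limma adjusted p up to 0.0826). Among 8 Th1-linked genes, Cxcr3, a chemokine receptor, rose (1.44, limma adjusted p = 0.00191).

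**Figure D5:**
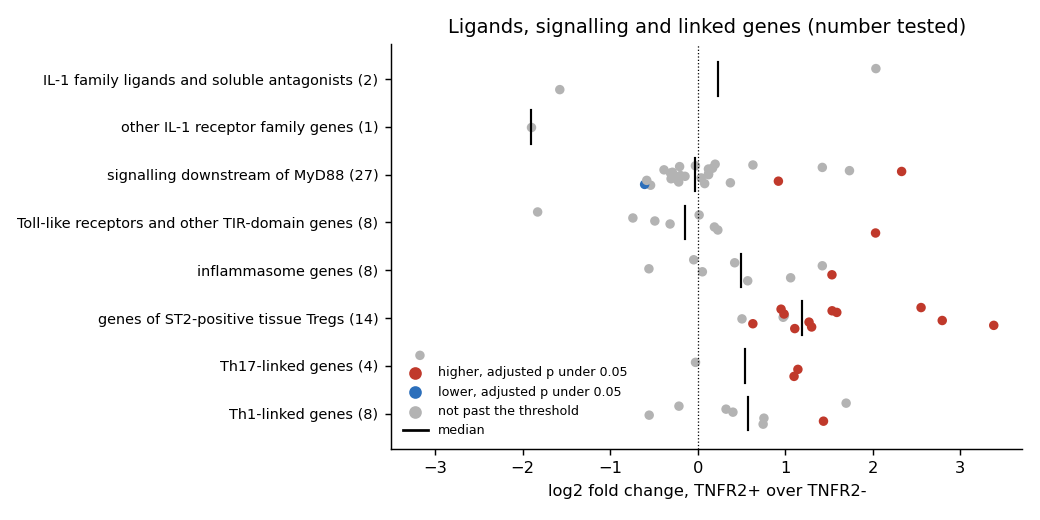
Log2 fold change of each tested gene of 8 lists, red or blue where the adjusted p is under 0.05 and gray otherwise, with the median of each list as a black line and the number tested in brackets. Red points gather among the genes of ST2+ tissue Tregs (11 of 14, in a list chosen with earlier results known), while the 27 genes downstream of MyD88 centre on 0.

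Among Treg and CD4 T cell markers, Ctla4, Ikzf2 and Cd3e of 8 rose in TNFR2+ Tregs, by 1.85-, 1.93- and 1.43-fold, beside 4.52% of all tested genes. Ikzf2 just missed the threshold without TNFR2- replicate 2 (limma adjusted p = 0.0507). Foxp3 and Il2ra, which also define Tregs, had negative estimates and were not called. Foxp3 was at 3126 ± 219 in TNFR2+ and 3664 ± 316 in TNFR2- Tregs (SD, n = 4 each; log2 fold change -0.23, limma adjusted p = 0.232). Il2ra was at 2742 ± 225 and 3482 ± 363, without overlap (log2 fold change -0.34, limma adjusted p = 0.0860). Of the markers of other cells, 4 of 10 B cell genes, 3 of 12 myeloid genes and 2 of 9 mast cell and basophil genes were tested, and none was called. The B cell estimates were above 0 for 3 and below 0 for 1. Cd22 had 273 to 350 normalized counts in TNFR2+ and 54.7 to 223 in TNFR2- Tregs, without overlap (limma adjusted p = 0.0612). With estimated array weights, under scaling to equal totals or without TNFR2- replicate 3, 1 B cell marker was called higher. Among the cytotoxic lymphocyte markers 4 of 10 were tested and Nkg7 was called, at 64.3 against 7.83 normalized counts (limma adjusted p = 0.00927). The others tested did not follow it. Prf1 was at 6.92 against 23.4 normalized counts (log2 fold change -1.09, limma adjusted p = 0.572), and the log2 fold changes of Eomes and Cd8b1 were 0.11 and 0.04. The share called was 7.91% over all tested genes. The summed B cell markers were 413 to 524 normalized counts in TNFR2+ and 206 to 482 in TNFR2- Tregs. The summed myeloid markers were 159 to 255 and 183 to 497, with S100a9 at 0 in 7 of 8 libraries and Lyz2 and S100a8 without a row in the table used here. The summed cytotoxic markers were 142 to 212 and 105 to 170.0. The part of such cells in the levels of the receptors was not tested.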

How the data were processed

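RNA from 4 TNFR2+ and 4 TNFR2- Treg libraries was sequenced with a stranded total RNA kit. The authors checked reads with FastQC 0.11.8, trimmed them, estimated transcript abundance with Salmon 1.3.0 on the Ensembl GRCm38 transcriptome and normalized genes with DESeq2 1.28 in R 4.0. The deposited values are a normalized signal per gene (counts divided by size factors), not whole reads. How transcripts were summed to genes is not given in the sources used here, and this and any length correction affect levels per kilobase most.

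The 10 genes and all lists were chosen with earlier results of these data known. Identifiers were matched to GENCODE M21 (20008 of 20172). Depth was estimated in 2806 genes with a single transcript over 1500 bases, where 69.7% to 96.4% of values up to 12 lay within 0.1 of whole multiples of 1 step. Genes with a mean of at least 10 were tested on log2(normalized count + 1) with limma 3.58.1 (R 4.3.3, intensity trend, 2-sided, Benjamini-Hochberg over 13990 genes, threshold 0.05). Single genes also had an exact permutation test (70 relabellings). The fit was tested on simulated data. Near-identical copies were sought with blastn 2.17.0 (95% identity over 50% of a transcript), and only Myd88 had a hit, in the overlapping Acaa1a. All 10 genes and Tnfrsf1b were named, with, per list, the genes called (at most the 6 of largest fold change), the 3 most similar profiles, and genes of the receptor cluster; other genes beside them were named after their values were seen. Lists were the 8 pathway and 5 marker lists described. Alternatives varied the pseudocount, filter, trend, weights, scaling, replicate block and libraries, and, chosen after the data were seen, TNFR2- replicates 2 and 4 were left out together. RefSeq promoters matched 9 of the 10 genes.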

Additional observations from a re-analysis of the deposited data

Results flagged for a closer look

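Each gene was checked in each population for a library that stands apart from the other 3, by the gap to its nearest neighbour over the whole range (above Dixon's 95% critical value), and 5 of 20 groups had one. Chance gives about 5% of groups where values are normally distributed. The check used untransformed normalized counts, and in both populations the other libraries of Il1r1 lay at the floor. The number of flags is therefore not read as an excess. Il1rl1 reached 387 normalized counts in TNFR2- replicate 3, against 162 to 168 in the other TNFR2- libraries. Il1r1 was at 106 normalized counts in the same library, against 0 to 0.34 in the others of its population. In TNFR2+ replicate 4 Il1r1 was at 10.2, against 0 to 0.98. Myd88 was at 462 in TNFR2+ replicate 4, against 355.5 to 364. Irak4 was at 253 in TNFR2+ replicate 2, against 186 in each of the other 3.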

How the results depend on the processing

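Il1r2 was called higher under 10 of 11 alternatives and without each of the 8 libraries, and no other of the 10 genes was called under any of them. Without the intensity trend 0 of the 10 genes were called, and 465 genes in all against 1107. Without single libraries 636 to 1324 genes were called, the fewest without TNFR2+ replicate 2 with 693 without TNFR2+ replicate 3 and 711 without TNFR2- replicate 2. The calls of Tnfrsf1b, Peli2, Map2k3, Ikbkb, Pik3ap1, Il10, Tigit, Prdm1, Ikzf2, Cd3e, Lag3 and Chst2 were also lost without the trend (limma adjusted p of 0.0574 to 0.156), and that of Ccr6 with a lower or no minimum mean (0.0508 and 0.0509). The cause of these differences was not tested. The log2 fold change of Il18r1 ranged from -0.057 to 0.14 without single libraries, at -0.025, -0.057 and -0.035 where it turned negative. Scaling to equal totals moved the median of all genes from -0.01 to 0.12, and the higher share of calls from 57.2% to 74.5%. Without mitochondrial genes, Gm26917 and Gm42418 that share was 69.97%. No sign of the 10 genes changed under a scaling. Per kilobase, merged exons lowered the mean of Il1rap from 25.8 to 10.3. Same-numbered libraries did not deviate together over all tested genes (correlations -0.04 to 0.00). This cannot settle whether the numbers pair them, because the sources do not say how the libraries were matched. With the replicate block 1183 genes were called, Il1r2 again among them as the only one of the 10 genes (limma adjusted p = 0.000864). Il1rl1 was at a limma adjusted p of 0.0901 with the block. Ccr6 lost its call with it (limma adjusted p = 0.0570) and Prg4 gained one (limma adjusted p = 0.0248). Without TNFR2- replicates 2 and 4 together, an alternative chosen after the data were seen, 480 genes and 0 of the 10 were called, the log2 fold changes of Il18r1 and Il18rap were -0.22 and -0.0072, and Peli2, Map2k3, Ikbkb, Prdm1, Ccr6, Ikzf2, Cd3e and Lag3 lost their calls; this leaves 2 TNFR2- libraries. Il1r1 could not be fitted with a minimum mean of 50 or without TNFR2- replicate 3. At this depth Il1r1 was at the floor in most libraries.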
